A study of Mus musculus with 42 samples.

Results

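A group of 8 genes of fatty acid uptake and intracellular fatty acid binding was examined in mouse RNA sequencing libraries labelled as liver: Cd36, Slc27a1, Slc27a2, Slc27a4, Fabp1, Fabp2, Fabp4, and Fabp5. These 8 of the 54532 genes in the table were chosen by name, and each had 1 entry. Weanling female C57BL/6NHsd mice (C57BL/6 in the labels), 3 weeks old at the start, were given for 3 weeks either AIN93G, the standard diet, in which soybean oil supplied 16% of the energy, or a modified AIN93G high-fat diet (HFD), in which it supplied 45%. Mice were not fasted. Livers were taken every 4 h of Zeitgeber time (ZT, in h after lights on, with lights off at ZT 12), from ZT 0 to ZT 24, and each diet and time has 3 libraries, 42 in all. The paper states a sampling period longer than that span, and the labels used here do not give the day of each library. At ZT 12, each diet held 1 library recorded as light phase and 2 recorded as dark phase.

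Long-chain fatty acids enter cells with the help of the membrane glycoprotein CD36 and of the fatty acid transport proteins encoded by the Slc27 genes, several of which also couple fatty acids to coenzyme A. Inside the cell, fatty acid binding proteins (FABPs) carry the insoluble fatty acids between membranes, mitochondria, lipid droplets, and the nucleus. Tissues differ in the isoforms that they use. Hepatocytes are known for FABP1 and for the transport proteins encoded by Slc27a2 and Slc27a5, while adipocytes are known for FABP4, CD36, and the transport protein encoded by Slc27a1.

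Levels are given as CPM, the count of a gene divided by the total count of its library and multiplied by 1000000. Total counts were between 14592481 and 21368409. Not all libraries carried the markers of liver. Albumin (Alb) was between 66434 and 111995 CPM in 32 libraries and between 18.7 and 81.0 CPM in the other 10, and a limit of 10000 CPM was used to name the former liver libraries and the latter adipocyte-rich libraries. Hepatocyte nuclear factor Hnf4a was between 525 and 818 CPM in the 32 libraries and at most 0.364 CPM in the 10. Adiponectin (Adipoq) was at most 5.01 CPM in the 32 and between 1455 and 2984 CPM in the 10. The adipocyte-rich libraries were all 6 of AIN93G at ZT 16 and ZT 20 and, at ZT 24, 2 of 3 in each diet. All other libraries were liver libraries. The sorting rests on measured values, so values of the 2 kinds of library are described without a test.

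Promoter sequences of RefSeq (GRCm38.p6, the same build as mm10) were found for 6 of the 8 genes. Those of 3 genes are shown because Fabp1 and Fabp2 were nearly absent from the adipocyte-rich libraries and Cd36 was abundant there. Each window lies within the 250 bases before a RefSeq start, on the strand of the gene, with the bases of annotated exons left out. Capitals mark the nuclear receptor motif AGGTCA, searched on both strands and read as TGACCT where it lies on the opposite strand.
Fabp1, chr6:71199629-71199826, plus strand: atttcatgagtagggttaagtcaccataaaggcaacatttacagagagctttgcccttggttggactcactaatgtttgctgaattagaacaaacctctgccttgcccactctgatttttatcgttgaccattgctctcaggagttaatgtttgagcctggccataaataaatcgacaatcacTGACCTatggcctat
Fabp2, chr3:122894822-122895071, plus strand: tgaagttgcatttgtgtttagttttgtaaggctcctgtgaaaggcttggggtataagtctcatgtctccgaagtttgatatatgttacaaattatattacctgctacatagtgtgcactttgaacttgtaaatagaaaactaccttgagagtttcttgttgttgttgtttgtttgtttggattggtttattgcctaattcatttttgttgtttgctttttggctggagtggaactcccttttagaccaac
Cd36, chr5:17835897-17836146, minus strand: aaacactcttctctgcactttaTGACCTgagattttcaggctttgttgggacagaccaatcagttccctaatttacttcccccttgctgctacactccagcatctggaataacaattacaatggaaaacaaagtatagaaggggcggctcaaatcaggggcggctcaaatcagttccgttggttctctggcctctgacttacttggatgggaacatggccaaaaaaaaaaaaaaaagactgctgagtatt
AGGTCA is the unit to which many nuclear receptors, including the fatty acid sensors of the PPAR family with their partner RXR, bind in pairs. It occurred in 14% of 32851 promoter windows of 250 bases. Fabp1 held it 67 to 62 bases before its start and again 9 to 4 bases before it. Cd36 held it 228 to 223 bases and Slc27a2 220 to 215 bases before the RefSeq start. The Cd36 window lies inside the annotated span of the gene (17781690 to 17888801, minus strand). That of Slc27a2 begins at 126552774, inside a span that begins at 126552407. These 2 starts are thus not the outermost starts of their genes. Fabp2, Slc27a1, and Slc27a4 held no match in their windows. The second Fabp1 match lies outside the stretch printed above.

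The 2 kinds of library used different isoforms of each family. In the liver libraries, Fabp1 had a median of 3062 CPM (range 873 to 5281) and Fabp4 one of 8.27 CPM (3.37 to 32.7). In the adipocyte-rich libraries, Fabp4 had a median of 8431 CPM (4882 to 11986) and Fabp1 one of 0.793 CPM (0.172 to 1.34). The transport proteins were exchanged in the same manner, with Slc27a2 at 1232 CPM (632 to 1864) in liver and 9.56 CPM (0.799 to 40.0) in adipocyte-rich libraries, and Slc27a1 at 10.3 CPM (5.22 to 17.02) and 856 CPM (540 to 1300). For these 4 genes, the ranges of the 2 kinds of library did not overlap. How many of all genes had no such overlap was not counted. At ZT 16 and ZT 20, where the diets differed in the kind of library, 55.7% of 14082 and 59.3% of 13697 genes passed for diet in edgeR.

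**Figure D1:**
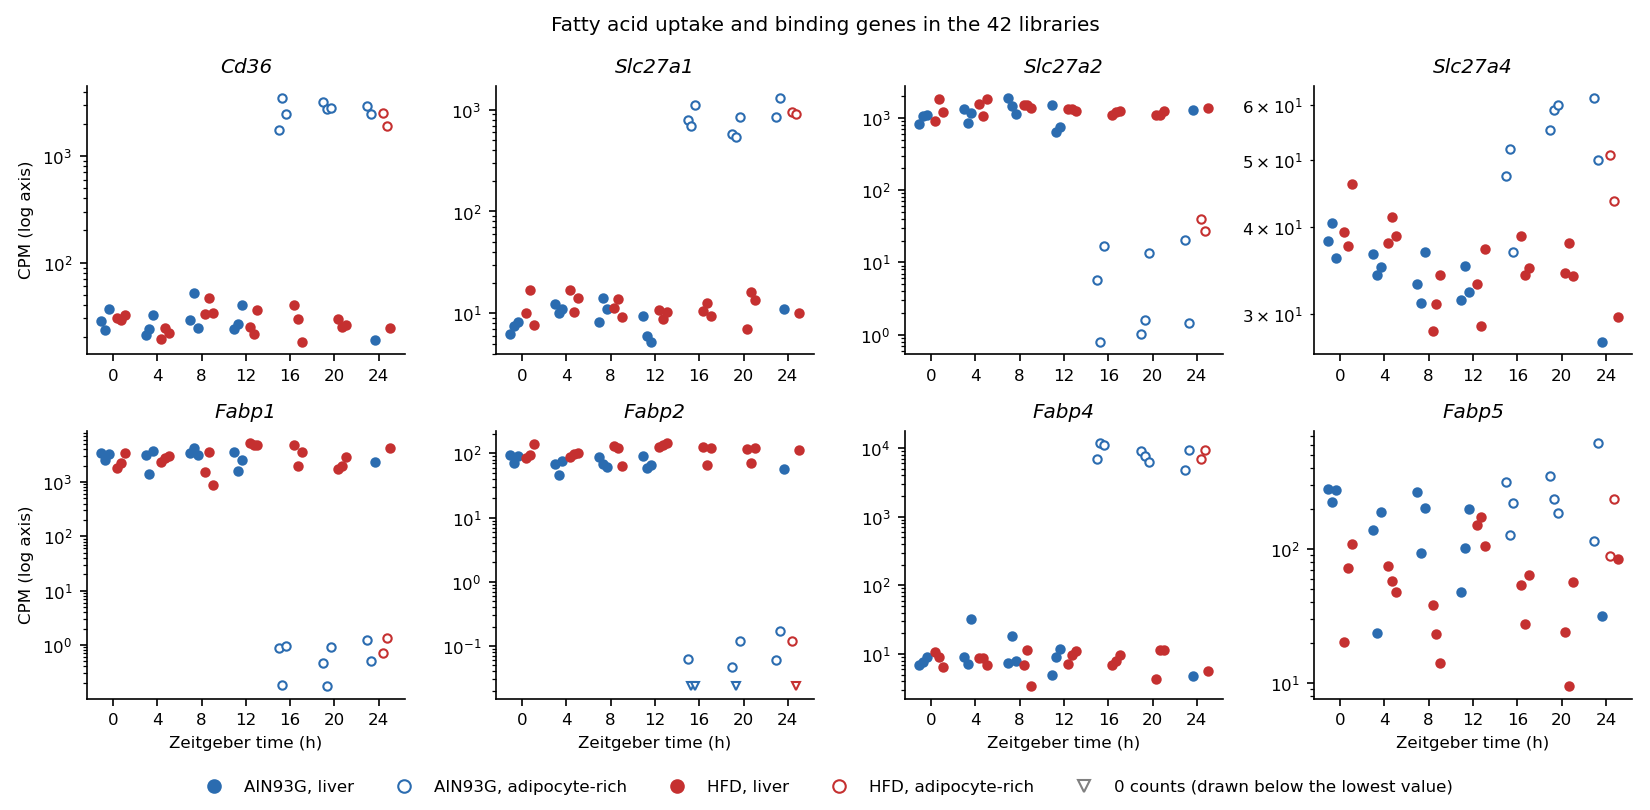
CPM of the 8 genes (log axis) in each of the 42 libraries against Zeitgeber time, blue for AIN93G and red for the HFD, filled for liver and open for adipocyte-rich libraries, with triangles for libraries without a count. Fabp1, Fabp2, and Slc27a2 were high wherever Cd36, Fabp4, and Slc27a1 were low, while Slc27a4 and Fabp5 overlapped between the 2 kinds.

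Cd36 (chr5:17781690-17888801, minus strand of mm10) encodes the scavenger receptor that takes up long-chain fatty acids in adipose tissue and muscle. The median of Cd36 was 27.5 CPM (18.1 to 52.1) in liver libraries and 2630 CPM (1759 to 3471) in adipocyte-rich libraries, a ratio of medians of 95.8. Scaled by the TMM factors of edgeR over all libraries, which were 0.811 to 0.970 in liver and 1.23 to 1.75 in adipocyte-rich libraries, the ratio was 61.0. Slc27a1 (chr8:71568882-71587302, plus strand), the insulin-responsive transport protein of fat and muscle, had a ratio of 83.4, or 48.9 after TMM scaling. Slc27a2 (chr2:126552407-126588243, plus strand), a liver transport protein and very-long-chain acyl-CoA synthetase, was 129 times higher in liver libraries, or 219 times after TMM scaling.

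Slc27a4 (chr2:29802634-29817522, plus strand), a broadly expressed transport protein known from intestine and skin, was nearly alike in both kinds of library. Its range was 27.3 to 46.2 CPM in liver and 36.9 to 61.4 CPM in adipocyte-rich libraries, so the ranges overlapped. The order of its medians turned with the scaling: adipocyte-rich libraries stood at 1.47 times the liver median in plain CPM and at 0.910 times after TMM scaling. No direction is therefore given for it.

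Fabp1 (chr6:71199827-71205023, plus strand), the liver form of the binding proteins, was 3863 times higher at the median of liver libraries, or 7553 times after TMM scaling. Fabp4 (chr3:10204088-10208576, minus strand), the adipocyte form also called aP2, was 1019 times higher at the median of adipocyte-rich libraries, or 624 times after TMM scaling. Fabp2 (chr3:122895072-122899506, plus strand), the intestinal form, ranged from 46.03 to 147 CPM in liver and from 0 to 0.170 CPM in adipocyte-rich libraries, where no library held more than 3 counts. The summed CPM of 7 enterocyte markers was 276 to 768 in liver and 34.3 to 64.0 in adipocyte-rich libraries, and nearly all of it was Apoa4 (149 to 635 CPM in liver libraries) and Anpep (91.4 to 161 CPM), which liver expresses as well. Of the other 5 markers, Sis and Alpi had no count in any liver library, and Lct was at most 0.190 CPM, Cdx2 at most 0.0628 CPM, and Vil1 at most 1.24 CPM. Fabp5 (chr3:10012548-10016607, plus strand), the epidermal form, ranged from 9.44 to 278 CPM in liver and from 89.0 to 619 CPM in adipocyte-rich libraries. Its ranges overlapped, although the median of the latter was 3.10 times higher, or 1.84 times after TMM scaling.

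To compare levels between genes, CPM was divided by the length in kilobases of the longest principal transcript of each gene in GENCODE M21, which gave CPM per kb. In liver libraries, Fabp1 had the highest median (5536 CPM per kb), followed by Slc27a2 (422), Fabp2 (95.0), Fabp5 (74.1), Fabp4 (9.23), Slc27a4 (8.63), Cd36 (8.08), and Slc27a1 (3.67). The range of Fabp1 lay above that of Slc27a2 (217 to 639), and the range of Slc27a2 above that of Fabp2 (47.7 to 152). From Fabp2 downward, the range of each gene overlapped the next in the order, and that of Fabp5 (9.57 to 281) also overlapped that of Slc27a2. All genes were measured in the same libraries, and within them Slc27a2 stood above Fabp5 in 32 of 32, Fabp5 above Fabp4 in 31 of 32, and Cd36 above Slc27a1 in 31 of 32. The order turned more often for the other neighbours. Fabp2 stood above Fabp5 in 20, Fabp4 above Slc27a4 in 18, and Slc27a4 above Cd36 in 20 of the 32, without a test. Over ZT 0 to ZT 12, the medians of Fabp2 and Fabp5 were 69.2 and 193 CPM on AIN93G. They were 112 and 64.6 CPM on the HFD, so the order of these 2 genes differed between the diets. With the gene lengths deposited beside the counts, Fabp4 had a liver median of 1.84 CPM per kb and Slc27a4 one of 7.93. In adipocyte-rich libraries, the order was Fabp4 (9409), Cd36 (774), Slc27a1 (306), Fabp5 (229), Slc27a4 (12.7), Slc27a2 (3.28), Fabp1 (1.43), and Fabp2 (0.0561). There, the range of Slc27a1 (193 to 465) overlapped that of Fabp5 (90.1 to 627), Slc27a4 overlapped Slc27a2, and Slc27a2 overlapped Fabp1, while the other neighbours were apart. Within libraries, the former gene of these pairs was higher in 6, 9, and 7 of 10. Fabp5 also overlapped Cd36 (517 to 1021), which stood above it in each of the 10. The leading binding protein of each kind of library had overlapping ranges per length, 1579 to 9549 for Fabp1 in liver and 5449 to 13377 for Fabp4 in adipocyte-rich libraries.

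As a share of the summed CPM per kb of the 10 FABP genes (Fabp1 to Fabp7, Fabp9, Fabp12, and Pmp2), Fabp1 made up 93.6 to 97.8% in liver libraries and at most 0.0392% in adipocyte-rich libraries. Fabp4 made up 94.0 to 98.8% in adipocyte-rich libraries and at most 0.511% in liver. Fabp2 held 0.883 to 4.56% and Fabp5 0.256 to 4.59% of the liver total. Fabp3, the heart and muscle form, reached 4.28% in an adipocyte-rich library, and Fabp6 had no count anywhere. Among the 6 Slc27 genes, the liver total was divided between Slc27a2 (36.5 to 67.6%) and Slc27a5 (31.2 to 61.4%), the bile acid-activating transport protein. In adipocyte-rich libraries, Slc27a1 held 91.2 to 96.6%, Slc27a4 2.19 to 6.87%, and Slc27a2 0.103 to 3.71%. The deposited gene lengths of Fabp4 (4489 bases) and Fabp5 (3567 bases) exceeded their transcripts (896 and 987 bases), and with the deposited lengths the share of Fabp4 in adipocyte-rich libraries was 80.4 to 97.4% and that of Fabp3 reached 18.2%. The share of Fabp5 then became 0.0712 to 1.32% in liver, that of Fabp1 at most 0.182% and that of Fabp2 at most 0.00815% in adipocyte-rich libraries, and that of Fabp4 at most 0.104% in liver. Among the Slc27 genes, Slc27a1 then held 84.5 to 93.8%, Slc27a4 4.05 to 12.2%, and Slc27a2 0.158 to 5.64% in adipocyte-rich libraries.

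**Figure D2:**
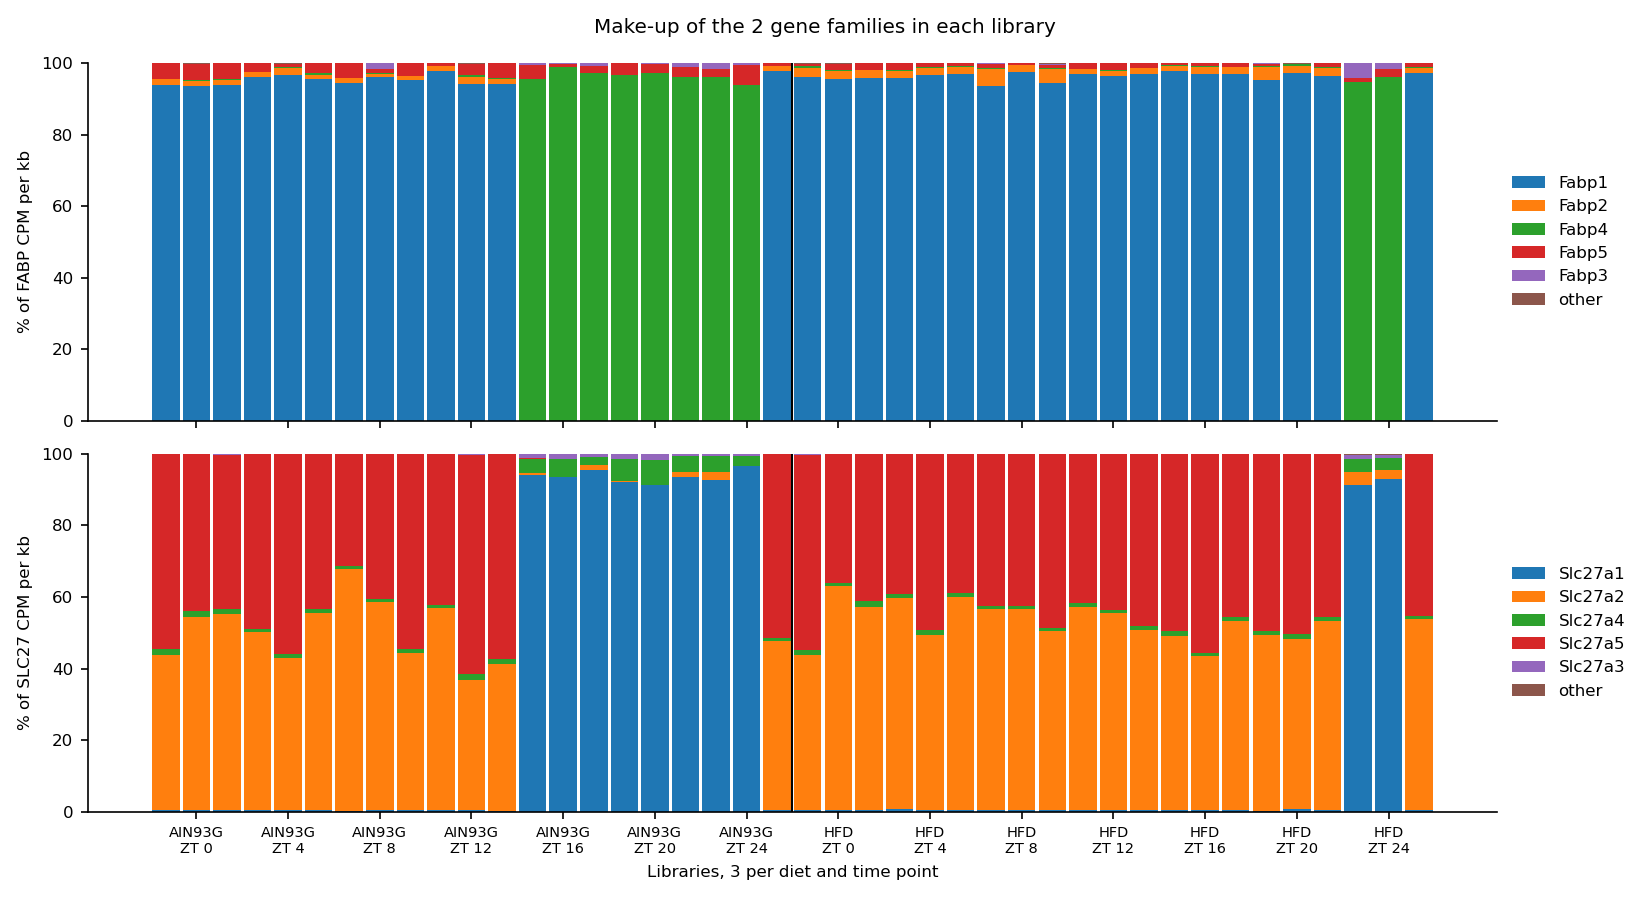
Share of each gene in the summed CPM per kb (transcript lengths) of the FABP family (upper bars) and of the SLC27 family (lower bars), for each library in the order of diet and time point; AIN93G stands left of the line. Fabp1 fills at least 93.6% of the FABP total in every liver library and Fabp4 at least 94.0% in every adipocyte-rich library.

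At ZT 24, both kinds of library occurred in both diets, so these 6 libraries are given one by one without a test. On AIN93G, Fabp1 was at 1.23, 0.511, and 2313 CPM and Fabp4 at 4882, 9484, and 4.82 CPM in replicates 1, 2, and 3. On the HFD, Fabp1 was at 0.714, 1.34, and 4155 CPM and Fabp4 at 7057, 9558, and 5.66 CPM. Cd36 was at 2948, 2442, and 18.7 CPM on AIN93G and at 2540, 1908, and 24.2 CPM on the HFD. In each diet, replicates 1 and 2, which were poor in Alb, were high in Fabp4 and Cd36 and low in Fabp1, and replicate 3, which was rich in Alb, had the opposite pattern. Fabp5 was at 115, 619, and 31.8 CPM on AIN93G and at 89.0, 236, and 84.5 CPM on the HFD. Of the adipocyte-rich libraries at ZT 24, replicate 2 of each diet held the most Fabp5, and these 2 libraries also had the highest summed CPM of 5 skeletal muscle markers (10501 and 13179, against 17.4 to 4132 in the other 8 adipocyte-rich libraries). Replicate 2 of AIN93G at ZT 16, with the next highest sum (4132), held 128 CPM of Fabp5, the lowest of its group, and replicate 1 there, with a sum of 52.05, held 317 CPM. The part of these markers in the result was not tested.

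The question of the study was how the HFD changes liver transcripts over the day. At ZT 0, 4, 8, and 12, all 24 libraries were liver libraries, and the diets could be compared in like tissue. No member passed an adjusted p of 0.05 for diet over these time points with the quasi-likelihood test of edgeR, with time point in the model (0 of 8; 0.15% of 12009 genes passed). Of the members, 3 had an unadjusted p under 0.05, as did 945 of the 12009 genes. Fabp2 and Slc27a1 were in the direction of higher levels on the HFD and Fabp5 in that of lower levels. With DESeq2, 1 member, Fabp2, passed, beside 80 of all genes. The median log2 fold change was -0.02 over the 8 members and -0.00 over all genes tested.

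Fabp2 had the smallest p of the 8. On AIN93G, it ranged from 46.03 to 95.2 CPM with a median of 69.2 over the 12 libraries, and on the HFD from 64.5 to 147 CPM with a median of 112. By time point, the AIN93G and HFD means (± SD, n = 3) were 85.4 ± 13.2 and 106 ± 28.4 CPM at ZT 0, 63.6 ± 15.9 and 96.5 ± 6.88 at ZT 4, 72.2 ± 14.5 and 105 ± 35.5 at ZT 8, and 72.7 ± 17.5 and 136 ± 10.4 at ZT 12. The mean was higher on the HFD at each of these times. The libraries of the diets did not overlap at ZT 4 (46.03 to 76.9 against 89.0 to 102 CPM) and ZT 12 (59.6 to 92.7 against 126 to 147 CPM). How many of all genes separated so, with 3 libraries per diet, was not counted, here or for Fabp5 and Fabp1 below. The log2 fold change was 0.57 (SE 0.13), with an adjusted p of 0.0892 in edgeR. It passed the threshold with DESeq2 (adjusted p = 0.00789), with scaling by library size (0.0400), without the filter on low counts (0.00690), with the ZT 24 liver libraries added (0.0499), without replicate 1 of AIN93G at ZT 12 (0.0282), and without replicate 3 of the HFD at ZT 8 (0.0302). Over the 24 fits that each left out 1 library, its log2 fold change stayed between 0.52 and 0.63. Only 2 of these 24 fits passed, and the highest adjusted p among them was 0.183 in edgeR.

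Fabp5 had the largest difference in size. On AIN93G, it ranged from 23.4 to 278 CPM with a median of 193, and on the HFD from 14.2 to 173 CPM with a median of 64.6. At ZT 0, the AIN93G libraries held 278, 224, and 274 CPM and the HFD libraries 20.2, 71.6, and 109 CPM. At ZT 8, they held 268, 92.6, and 202 CPM against 38.4, 23.1, and 14.2 CPM. The diets did not overlap at these 2 times, but they overlapped at ZT 4, where 1 AIN93G library stood at 23.4 CPM, and at ZT 12. The mean on the HFD at ZT 12 was 143 ± 35.03 CPM (SD, n = 3), beside 116 ± 76.0 on AIN93G. Over the 4 times, Fabp5 differed by -1.39 on the log2 scale (SE 0.41; adjusted p = 0.237). At single times, it was -1.96 (SE 0.64; adjusted p = 0.911) at ZT 0, -1.01 (SE 0.62) at ZT 4, -2.91 (SE 0.66; adjusted p = 0.230) at ZT 8, and 0.36 (SE 0.62) at ZT 12. With 1 library left out, these values ranged from -2.50 to -1.52, from -1.50 to -0.51, from -3.39 to -2.56, and from 0.02 to 0.97, and none passed. The call over the day depended on the time points: without ZT 12, the log2 fold change was -1.95 with an adjusted p of 0.0312. It also passed without the filter on low counts (adjusted p = 0.0106) and without replicate 1 of AIN93G at ZT 12 (0.0493).

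**Figure D3:**
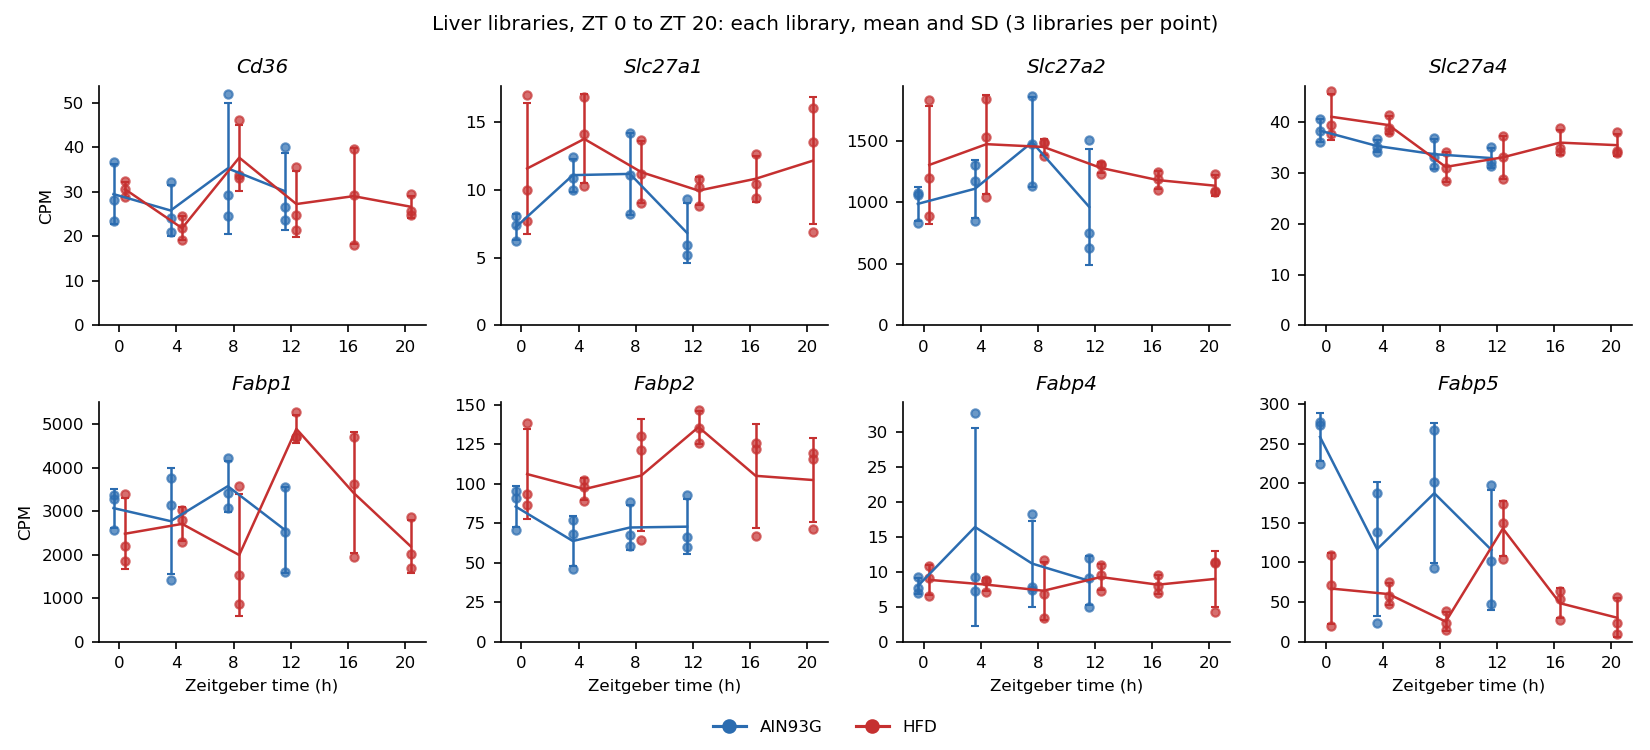
CPM of the 8 genes in liver libraries of ZT 0 to ZT 20, with each library as a point and lines through the means with SD (3 libraries per diet and time; AIN93G has no liver library at ZT 16 and ZT 20). Fabp2 means on the HFD lie above those on AIN93G from ZT 0 to ZT 12, and Fabp5 on the HFD is lowest at ZT 8 and highest at ZT 12.

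Fabp1, the most abundant member, ranged from 1409 to 4226 CPM on AIN93G and from 873 to 5281 CPM on the HFD, and differed by -0.09 on the log2 scale (SE 0.24; adjusted p = 0.957). The single times went in different directions. At ZT 8, the libraries held 3425, 4226, and 3086 CPM on AIN93G and 1529, 3576, and 873 CPM on the HFD (log2 fold change -0.88, SE 0.40; adjusted p = 0.416). The value was -1.54 without replicate 2 of the HFD (adjusted p = 0.0732) and -0.52 without replicate 3 (0.826). At ZT 12, they held 3571, 1611, and 2531 CPM against 5281, 4710, and 4706 CPM, without overlap (log2 fold change 0.93, SE 0.40; adjusted p = 0.667), and with 1 library left out the value was between 0.65 and 1.32. A change of the diet difference over the 4 times was not detected for any member (0 of 8 in edgeR with 2 at an unadjusted p under 0.05, Fabp1 and Fabp5; 0 in DESeq2). Of all genes, 0% passed that test, with 705 at an unadjusted p under 0.05 and 8 in DESeq2. The smallest member value was an adjusted p of 0.749, for Fabp5. Without the filter on low counts, Fabp5 (adjusted p = 2.86e-05) and Fabp1 (0.0418) passed that test in edgeR.

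Fabp4 in liver libraries was low, with a median of 8.47 CPM on AIN93G (5.01 to 32.7) and 8.70 CPM on the HFD (3.37 to 11.6). The highest value belonged to replicate 3 of AIN93G at ZT 4, which also held the most Adipoq of all liver libraries, 5.01 CPM, where the median was 0.0673. The next, 18.2 CPM in replicate 2 of AIN93G at ZT 8, came from a library with 1299 CPM of summed skeletal muscle markers and 97.2 CPM of Fabp3. That library had the highest Cd36 of the liver libraries as well (52.1 CPM). The part of these markers in the values was not tested. The log2 fold change of Fabp4 was -0.36 (SE 0.24; adjusted p = 0.742), and -0.11 (adjusted p = 0.935) without the ZT 4 library.

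None of the uptake genes passed. Cd36 medians were 27.5 (AIN93G) and 29.7 CPM (HFD), and the gene differed by -0.06 on the log2 scale (SE 0.12; adjusted p = 0.931). Slc27a4 ranged from 31.1 to 40.6 CPM on AIN93G and from 28.4 to 46.2 CPM on the HFD and differed by 0.03 on the log2 scale (SE 0.06; adjusted p = 0.946). It had the lowest spread of the 8, a coefficient of variation of 8.11% over the 12 AIN93G libraries and 14.6% over the 12 HFD libraries, where Fabp5 had 51.8 and 69.8%. Slc27a1 had medians of 8.77 and 10.6 CPM (log2 fold change 0.37, SE 0.14; adjusted p = 0.489). Slc27a2 had medians of 1104 and 1344 CPM (log2 fold change 0.28, SE 0.15; adjusted p = 0.660), and its lowest values, 632 and 752 CPM, were those of 2 AIN93G libraries at ZT 12, where the third, replicate 1, held 1506 CPM. That library stood apart from its group over all genes, with a chi-square divided by its degrees of freedom of 119 and 114 against the other two and of 23.5 between those. Without it, the log2 fold change of Slc27a2 at ZT 12 was 0.97 (adjusted p = 0.115) in place of 0.40 (0.768), and its adjusted p between times on AIN93G was 0.0907 in place of 0.720.

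Within single time points, no member passed (0 of 8 at each of ZT 0, 4, 8, and 12 in edgeR, each with 2 members at an unadjusted p under 0.05). With DESeq2, Fabp5 passed at ZT 8 (adjusted p = 0.0157) and no member at the other times. Of all genes, 0% passed at ZT 0, 4, and 12 in edgeR, with 482, 292, and 866 at an unadjusted p under 0.05 and 15, 0, and 7 in DESeq2. At ZT 8, 0.00833%, 1 gene, passed in edgeR, with 1398 at an unadjusted p under 0.05 and 38 in DESeq2. Of the 39 other genes of fatty acid uptake, binding, activation, and regulation, 32 were tested and none passed for diet over ZT 0 to ZT 12 in edgeR, and their median log2 fold change was -0.02.

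**Figure D4:**
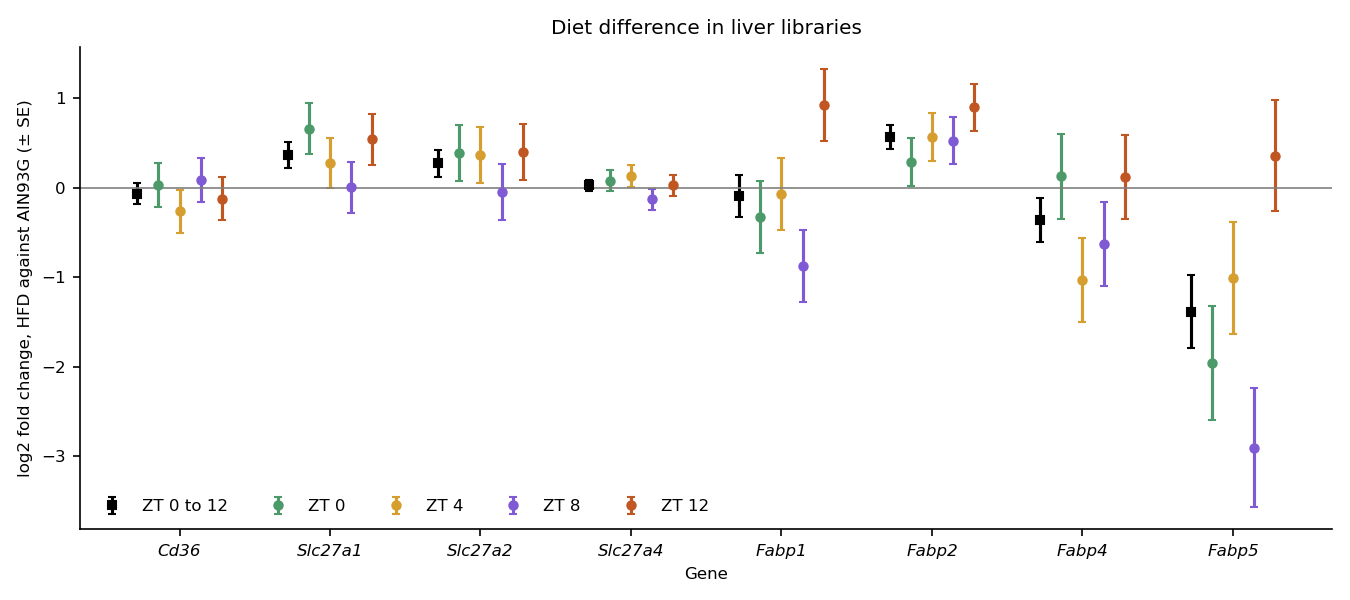
Log2 fold change of the HFD against AIN93G (± SE, edgeR) for each gene in liver libraries, over ZT 0 to ZT 12 (black squares) and at each time (circles). Fabp5 reaches -2.91 at ZT 8, Fabp2 lies above 0 at each time, and Cd36 and Slc27a4 stay near 0.

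Liver libraries covered ZT 0 to ZT 20 only on the HFD, and time profiles over that span come from these 18 libraries. No member passed the test for any difference between the 6 times in edgeR (0 of 8, with 2 at an unadjusted p under 0.05, Fabp5 and Fabp1), where 2.71% of 12008 genes did. These 2 members passed with DESeq2 (adjusted p = 0.0180 for Fabp5 and 0.0172 for Fabp1). Of all genes, 2609 had an unadjusted p under 0.05 in edgeR, and 1547 passed with DESeq2. Fabp5 came nearest in edgeR (adjusted p = 0.0788). Its means (± SD, n = 3) were 66.9 ± 44.5, 60.0 ± 13.7, 25.2 ± 12.2, 143 ± 35.03, 48.4 ± 18.7, and 30.1 ± 24.3 CPM from ZT 0 to ZT 20. All 3 libraries of ZT 12 (105 to 173 CPM) exceeded all 6 of ZT 16 and ZT 20 (9.44 to 64.0 CPM) and all 3 of ZT 8 (14.2 to 38.4 CPM). The libraries of ZT 12 overlapped those of ZT 0 (20.2 to 109 CPM). The call for Fabp5 was made without replicate 1 at ZT 0 (adjusted p = 0.0481) and without replicate 3 at ZT 20 (0.0421). Fabp1 (adjusted p = 0.160 in edgeR) was also highest at ZT 12, with a mean of 4899 ± 331 CPM, after 1993 ± 1410 CPM at ZT 8 and before 3427 ± 1390 CPM at ZT 16 and 2195 ± 605 CPM at ZT 20. Without replicate 2 at ZT 8, its adjusted p was 0.0441.

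A 24 h cosine was fitted to the same libraries. None of the 8 members passed (0 of 8 in edgeR and 0 at an unadjusted p under 0.05; 0 in DESeq2), beside 8.52% of 12008 genes. The fitted amplitudes on the log2 scale were 0.42 (SE 0.22) for Fabp1, 0.45 (SE 0.40) for Fabp5, 0.19 (SE 0.13) for Fabp2, and 0.18 (SE 0.09) for Slc27a2. Slc27a4 had the smallest SE, with an amplitude of 0.11 (SE 0.04; adjusted p = 0.279) and a fitted peak at 22.9 h. The other 3 genes had amplitudes of 0.09 to 0.12. The lowest and highest group means over the day on the HFD were 96.5 and 136 CPM for Fabp2 and 1136 and 1474 CPM for Slc27a2.

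Of the 31 pathway genes tested, 5 passed for the cosine, beside the 8.52% of all genes. Ppard, a fatty acid-sensing nuclear receptor, had an amplitude of 1.30 (SE 0.27) on the log2 scale with a fitted peak at 20.3 h, and it alone of the list passed the test between times (adjusted p = 0.00534), beside the 2.71% of all genes. Mfsd2a, a transporter of lysophosphatidylcholine-bound fatty acids, had an amplitude of 0.61 (SE 0.17) and a peak at 12.4 h. Lipoprotein lipase Lpl had 0.58 (SE 0.14; peak at 3.94 h), acyl-CoA synthetase Acsl3 0.47 (SE 0.11; 18.7 h), and the HDL receptor Scarb1 0.32 (SE 0.08; 2.14 h). The adjusted p of these 5 genes was 0.0206 to 0.0414.

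On AIN93G, only ZT 0 to ZT 12 could be compared between times in liver. No member passed in edgeR (0 of 8, with 1, Slc27a1, at an unadjusted p under 0.05; 0 in DESeq2), and 0% of 12008 genes did (1196 at an unadjusted p under 0.05; 278 in DESeq2). Slc27a1 had means of 7.25 ± 0.945, 11.1 ± 1.21, 11.2 ± 3.01, and 6.82 ± 2.21 CPM (SD, n = 3) at the 4 times (adjusted p = 0.447, and 0.0481 without replicate 1 at ZT 12).

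At ZT 16 and ZT 20, the HFD libraries were liver libraries and the AIN93G libraries were adipocyte-rich. In these comparisons the diet and the tissue content cannot be told apart, nor can fewer cells of a type be told apart from less RNA per cell. The summed CPM of 10 hepatocyte markers was 119433 to 127088 on the HFD and 27.4 to 82.4 on AIN93G at ZT 16, and 111516 to 146364 and 76.8 to 87.4 at ZT 20. That of 10 adipocyte markers was 1965 to 3119 and 11039 to 19218 at ZT 16, and 1469 to 3321 and 14012 to 15444 at ZT 20, and most of the HFD value was Pck1, which liver expresses as well. Some sums of other cell type markers differed between the diets too. The summed CPM of 8 macrophage and Kupffer cell markers was 702 to 861 on AIN93G and 306 to 495 on the HFD at ZT 16, and 561 to 706 and 406 to 523 at ZT 20. That of 7 endothelial markers was 313 to 437 and 128 to 191 at ZT 16, and 399 to 435 and 168 to 190 at ZT 20. Both sums were thus higher on AIN93G, without overlap, as Cd36 and Fabp5 were, and their part in the values of these genes was not tested. The single markers did not all move alike with TMM scaling. Of the 8 macrophage and Kupffer cell markers, 2 passed with higher and 2 with lower levels on the HFD at ZT 16. At ZT 20, 3 passed with higher and 1 with lower levels. Of the 7 endothelial markers, 1 passed upward and 3 downward at ZT 16, and 1 and 6 at ZT 20. Of all genes, 55.7 and 59.3% passed at these times. The ranges of the keratinocyte and lymphocyte lists overlapped between the diets at both times, and that of the skeletal muscle list overlapped at ZT 16 and was higher on AIN93G at ZT 20 (up to 136 CPM, against up to 11.1 CPM).

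Fabp1 and Fabp2 had a mean count under the minimum of 25 in the AIN93G libraries and entered these tests only through the HFD libraries, so their calls are not read. Of the 6 members that reached the minimum in each diet, all 6 passed at ZT 16 in edgeR, Slc27a2 and Slc27a4 with higher and 4 with lower levels on the HFD, and Slc27a4 turned with the scaling. Over all 14082 genes tested, 55.7% passed (27% higher, 28.6% lower), and 48.7% of those that reached the minimum in each diet. At ZT 20, 5 of these 6 members passed, 1 upward and 4 downward, beside 59.3% of 13697 genes (28.1% higher, 31.2% lower) and 53.5% of those that reached the minimum in each diet. The median log2 fold change over all genes tested was -0.03 at ZT 16 and -0.04 at ZT 20. With library sizes as the only scaling, the median over all genes became -0.92 at ZT 16 and -0.71 at ZT 20, and 17.5 and 21.6% of the calls were higher on the HFD in place of 48.6 and 47.4%. Changes are therefore relative to the TMM scaling.

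Among the uptake genes, Cd36 was at 1759, 3471, and 2451 CPM in the AIN93G libraries and at 39.7, 29.3, and 18.1 CPM in the HFD libraries of ZT 16 (log2 fold change -5.58, SE 0.45; adjusted p = 6.65e-05). At ZT 20, it was at 3227, 2720, and 2809 CPM against 29.4, 24.8, and 25.8 CPM (-6.11, SE 0.25). Slc27a1 was lower on the HFD by the same order, with log2 fold changes of -5.43 (SE 0.29) and -5.11 (SE 0.36). Slc27a2 was higher on the HFD by 8.11 (SE 1.09, adjusted p = 0.000696) and 8.42 (SE 1.01) on the log2 scale. With 1 library left out, the value for Slc27a2 was 7.57 to 9.42 at ZT 16 and 7.91 to 10.42 at ZT 20. Its AIN93G libraries were spread widely, at 5.73, 0.799, and 16.98 CPM at ZT 16 and at 1.03, 1.61, and 13.4 CPM at ZT 20. The summed CPM of 5 brown adipocyte markers was 533, 56.8, and 698 in the same libraries of ZT 16 and 124, 436, and 942 in those of ZT 20, beside 11.5 to 78.5 in liver libraries, so that the order of the libraries was the same for both measures at each time. In the 4 adipocyte-rich libraries of ZT 24, the sums were 1022 and 126 on AIN93G and 1476 and 1014 on the HFD, where Slc27a2 was at 20.51 and 1.48 CPM and at 39.96 and 27.1 CPM. The part of these markers in the values of Slc27a2 was not tested. Slc27a4 differed by 0.55 at ZT 16 (SE 0.16; adjusted p = 0.0197) and by -0.05 at ZT 20 (SE 0.11; adjusted p = 0.738) on the log2 scale. With library size scaling the former turned to -0.34 (adjusted p = 0.0968) and the latter was -0.72 (adjusted p = 0.00122), so no direction can be given.

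Among the binding proteins, Fabp1 held 14, 3, and 16 counts in the AIN93G libraries of ZT 16 and 185375 counts in the 3 HFD libraries together. The ratio of summed CPM, without TMM scaling, was 5268 (95% counting interval 3751 to 7654). At ZT 20, the ratio was 4314 (2984 to 6492). The folds fitted by edgeR with TMM scaling, which depend on the prior count at such low counts, were larger, 9306 at ZT 16 and 6734 at ZT 20. Fabp2 held 1 count in the AIN93G libraries of ZT 16 and 5668 in the HFD libraries, a ratio in unscaled CPM of 5316 with a counting interval of 954 to 210001, and 3 and 5004 counts at ZT 20, a ratio of 1892 (647 to 9180). With TMM scaling, the fitted folds of Fabp2 were 6460 and 2596. They rest on these 1 and 3 counts and are not read. With 1 library left out, the fitted log2 fold change of Fabp2 ranged from 12.19 to 14.19 at ZT 16 and from 10.81 to 12.19 at ZT 20. Fabp4 was at 6935, 11986, and 11023 CPM on AIN93G and at 6.91, 7.95, and 9.54 CPM on the HFD at ZT 16 (log2 fold change -9.38, SE 0.47; adjusted p = 9.1e-06), and differed by -9.09 (SE 0.52) at ZT 20. Counting intervals and floors cover counting error only.

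Fabp5 was detected in both kinds of library. At ZT 16, the AIN93G libraries held 317, 128, and 219 CPM and the HFD libraries 53.7, 27.7, and 64.0 CPM (log2 fold change -1.30, SE 0.40; adjusted p = 0.0269). The call was lost in a fit of all 42 libraries (log2 fold change -1.34; adjusted p = 0.126) and in 4 of the 6 fits that left out 1 library, without replicates 1 or 3 of AIN93G (0.0630 and 0.0591) or replicates 1 or 2 of the HFD (0.0673 and 0.0749). The log2 fold change stayed between -1.57 and -1.01 over these 6 fits. At ZT 20, Fabp5 was at 349, 234, and 186 CPM against 24.0, 9.44, and 56.9 CPM (-2.40, SE 0.59, adjusted p = 0.00794). With 1 library left out, the value ranged from -3.28 to -1.94, and all 6 fits passed (highest adjusted p = 0.0423 in edgeR).

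Of the pathway genes that reached the minimum count in each diet, 21 of 27 passed at ZT 16 (12 upward and 9 downward on the HFD) and 21 of 26 at ZT 20 (12 and 9), beside the 48.7 and 53.5% of all such genes. At ZT 16, Lpl had a log2 fold change of -8.11 (SE 0.37), Got2 (mitochondrial aspartate aminotransferase, also a fatty acid-binding membrane protein) one of 3.98 (SE 0.22), and Dgat1 (triglyceride synthesis) one of -2.74 (SE 0.16). Lipc (hepatic lipase) held 31 counts in the AIN93G and 9881 in the HFD libraries of ZT 16, Slc27a5 11 and 50249 counts, and Nr1i2 (the xenobiotic receptor PXR) 0 and 4620 counts, and no test is read for these 3 genes.

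Between ZT 20 and ZT 16 on AIN93G, both adipocyte-rich and both used in the diet comparisons above, none of the 6 members tested passed in edgeR (1, Slc27a4, at an unadjusted p under 0.05; 0 in DESeq2), and 0% of 14016 genes did (1387 at an unadjusted p under 0.05; 156 in DESeq2). Slc27a4 differed by 0.53 on the log2 scale (SE 0.15; adjusted p = 0.487), with 47.4, 51.9, and 36.9 CPM at ZT 16 and 55.2, 59.0, and 60.1 CPM at ZT 20. Cd36, Fabp4, Fabp5, and Slc27a1 had log2 fold changes of 0.35 (SE 0.32), -0.21 (SE 0.38), 0.39 (SE 0.37), and -0.22 (SE 0.29). Fabp1 and Fabp2 were too low to be tested.

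The genes with the most similar profile to each member were listed by Pearson's r of log2 CPM over the 18 HFD liver libraries, as a description across libraries that share a fit and a time course. Fabp1 was most like Nhp2 (r = 0.913), Wdr83 (0.908), and Ndufa8 (0.902). Fabp4 was most like Tomm7 (0.916), Pet100 (0.888), and Higd2a (0.882), and Fabp2 like Sf3b5 (0.857), Pemt (0.826), and Snrpb2 (0.825). Over the 12 AIN93G libraries, r was 0.773, 0.394, and 0.262 for the 3 genes of Fabp1, 0.339, 0.449, and -0.03 for those of Fabp4, and -0.28, -0.11, and -0.04 for those of Fabp2. For Slc27a2, Sun2 had r = 0.891 on the HFD and 0.785 on AIN93G, Npr2 0.826 and 0.774, and Acad11, an acyl-CoA dehydrogenase, 0.816 and 0.929. Fabp5 was most like Cygb (0.854 on the HFD and -0.14 on AIN93G), Cpn1 (0.837 and 0.402), and Atp9a (0.801 and 0.549). Slc27a1 was most like Smpd2 (0.759 and 0.704), Clasrp (0.756 and -0.21), and Card10 (0.740 and 0.620). Slc27a4 was most like Mlec (0.836 and 0.126), Mmp14 (0.835 and 0.302), and Rrbp1 (0.806 and 0.331), and Cd36 like Maob (0.751 and -0.22), Pola1 (0.729 and -0.11), and Fam111a (0.727 and 0.112).

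The 4 binding proteins have short transcripts (553 to 987 bases), and the balance of short and long transcripts differed between liver libraries. It was measured as the median log2 CPM of 801 genes with transcripts under 1000 bases minus that of 5908 genes with transcripts over 3000 bases, members left out. This index ranged from -1.37 to -0.17 in the 18 HFD libraries and from -0.83 to -0.34 in the 12 AIN93G libraries. Over the 18 HFD libraries, its r was 0.75 with Fabp1, 0.73 with Fabp4, 0.59 with Fabp2, and 0.48 with Fabp5, and between -0.04 and 0.18 with Cd36 and the 3 transport proteins. Over the 12 AIN93G libraries, r was 0.38 with Fabp1, 0.115 with Fabp4, -0.07 with Fabp2, and -0.03 with Fabp5, and 0.65 with Slc27a1. The lowest index belonged to replicate 3 of the HFD at ZT 8, which also held the lowest HFD values of Fabp1 (873 CPM), Fabp2 (64.5 CPM), and Fabp4 (3.37 CPM). With the index in the model, the diet difference over ZT 0 to ZT 12 was 0.57 (SE 0.13; adjusted p = 0.0618) for Fabp2 and -1.35 (SE 0.41; adjusted p = 0.213) for Fabp5 on the log2 scale, and the adjusted p between times on the HFD was 0.260 for Fabp1 and 0.128 for Fabp5.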

How the data were processed

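Liver-labelled RNA was sequenced as 42 poly(A) libraries. The study's methods state that 3 RNA extractions per diet and time were sequenced, from a larger number of mice killed at each time. That each extraction was of 1 mouse is not stated, and if it was not, p-values measure a spread that is partly technical. The authors deposited whole-number read counts for each gene and library in 1 table, not normalized. The submitters' processing notes name fastp, STAR, HTSeq 0.6.1, DESeq, STAR-Fusion, and mm10, without roles. Gene identifiers were compared with GENCODE M21, where all 8 members had the same start and end.

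Groups were taken from the labels. Members and gene lists were chosen with earlier results of these data known. R 4.3.3 with edgeR 4.0.16 and DESeq2 1.42.0 was used. Adjusted p-values are from the quasi-likelihood F-test of edgeR unless DESeq2 is named, with TMM scaling over the libraries of the fit, a mean count of at least 25, and Benjamini-Hochberg adjustment over all genes tested at a threshold of 0.05. CPM in the text is unscaled beyond the library total. The cosine had a period of 24 h, on log2 CPM with a prior count of 2. All replicate pairs differed beyond counting error, with a chi-square divided by its degrees of freedom of at least 14.5. Named genes were the members, pathway genes past the threshold (at most 6 per comparison, smallest adjusted p first), and the 3 genes most like each member. Markers come from lists of cell type genes, and Fabp3 and Slc27a5 were named outside this rule after their values were seen.

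The strand setting of the counting is not given in the sources used here, so reads could be shared with overlapping genes: 4933405D12Rik (228 counts in all) overlaps Fabp2 and Gm26697 (246) overlaps Slc27a2, while the pseudogene Fabp5l2 held 5 counts. The tests were tested on simulated data, where edgeR kept its false calls near the nominal rate and DESeq2 exceeded it in several comparisons. A limit on false calls was first set for both tools and then kept for edgeR alone. The simulation gave all genes the same spread between replicates and held no outlying library. It therefore cannot decide which tool is right for the members, and calls made by DESeq2 alone are left undecided. Alternatives were DESeq2, library size scaling, no filter, other sets of libraries, and each library left out. The length index was added as a covariate after values had been seen.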

Additional observations from a re-analysis of the deposited data

Results flagged for a closer look

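The diet difference changed with time point for 7 of the 8 members when all 42 libraries were fitted together with edgeR. The adjusted p of the interaction was 0.000246 for Fabp4, 0.000272 for Cd36, 0.000276 for Slc27a1, 0.000926 for Fabp1, 0.000943 for Fabp2, 0.00161 for Slc27a2, and 0.0148 for Slc27a4. In that fit, 6239 of 13394 genes passed. Over ZT 0 to ZT 12, where every library was a liver library, none of the 8 did in edgeR (2 at an unadjusted p under 0.05; 0 in DESeq2). The 10 adipocyte-rich libraries lie at ZT 16 and ZT 20 on AIN93G and at ZT 24 on both diets, so tissue content and diet by time point cannot be told apart in the larger fit.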

How the results depend on the processing

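No paired analysis was possible because replicate numbers were given in accession order and pair no libraries. Some titles share a first number across time points of 1 diet, and its meaning is not given. No such number occurs in both diets, a fixed block on it leaves no residual degrees of freedom for the tests between times and few for the cosine, and neither that cosine fit nor a random block was run. Where a count differed by over 1.5 times from the edgeR count, both are given, and the cause was not tested unless fewer or more libraries or genes entered. Over ZT 0 to ZT 12, 18 genes passed for diet, 80 with DESeq2, 86 without the filter on low counts, 85 without ZT 12, 508 with all 42 libraries, and 30 with the length index (an alternative chosen after seeing the data). Of the members, 0 passed, 1 with DESeq2, 1 with library size scaling, 2 without the filter, 1 without ZT 12, 1 (Fabp5) with all 42 libraries, where diet and tissue content cannot be told apart, and 1 with the ZT 24 liver libraries. Leaving out 1 library gave 2 to 124 genes and 0 to 2 members. For the diet by time point test, 0 genes became 8 with DESeq2, 78 without the filter, and 6239 with all 42 libraries, members 2 (Fabp1 and Fabp5) and 7 in the latter pair, and 0 to 3 genes with 1 library left out. At ZT 0, 0 genes became 15 with DESeq2, 51 without the filter (1 member), 9 with that time point alone, and 0 to 4 with 1 library left out. At ZT 4, they became 16 without the filter. At ZT 8, 1 gene became 38 with DESeq2 (1 member), 161 without the filter (1 member), 0 with that time point alone, and 0 to 55 with 1 library left out. At ZT 12, 0 became 7 with DESeq2, 68 without the filter (1 member), and 0 to 31 with 1 library left out. Between times on the HFD, 325 became 1547 with DESeq2 (2 members), 2333 without the filter (3 members), 639 without ZT 12, 551 with the length index, and 170 to 1079 with 1 library left out (0 to 1 members). For the cosine, 1023 became 1693 with DESeq2, 367 with the ZT 24 liver library, 1800 with the length index, and 672 to 1710 with 1 library left out. Between times on AIN93G, 0 became 278 with DESeq2, 705 without the filter, and 0 to 302 with 1 library left out (0 to 1 members). Between ZT 20 and ZT 16 on AIN93G, 0 became 156 with DESeq2 and 2 without the filter.

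Of the 6 members that reached the minimum count in each diet, 4 to 6 passed at ZT 16 and 5 at ZT 20 with 1 library left out. At ZT 16, Slc27a4 lost its call without replicates 1 or 3 of AIN93G or replicate 1 of the HFD (adjusted p = 0.0608 to 0.0922 in edgeR). It also lost the call without the filter on low counts (log2 fold change 0.47, adjusted p = 0.0774 in edgeR) and turned to -0.34 with library size scaling. In a fit of all 42 libraries, the diet differences of Fabp1 (1.38) and Slc27a1 (-0.95) had the opposite sign to those over ZT 0 to ZT 12. Near 0 and far from the threshold, the diet difference over ZT 0 to ZT 12 ranged from -0.0033 (without replicate 3 of the HFD at ZT 0) to 0.055 for Slc27a4 and from -0.21 to 0.027 (without replicate 3 of the HFD at ZT 8) for Fabp1 with 1 library left out. Over all alternatives and members, 234 of 248 for diet over ZT 0 to ZT 12, 223 of 232 for diet by time point, 176 of 184 between times on the HFD, 192 of 192 for the cosine, 119 of 120 between times on AIN93G, and, for those 6 members, 50 of 60 at ZT 16 and 59 of 60 at ZT 20 kept their direction and side of the threshold. Levels near 0 counts, such as Fabp2 in adipocyte-rich libraries, limit those ratios.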
